A study of Homo sapiens with 18 samples.

Results

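The aminoacyl-tRNA synthetase genes are the genes in the deposited table whose symbol is an amino acid letter followed by ARS, with or without a final number, together with EPRS and the phenylalanine subunit genes FARSA and FARSB. This rule, which uses names and no measured value, found 37 of 58815 genes. Of these, 20 have no final 2 and encode the cytosolic enzymes (GARS and KARS also serve mitochondria), and 17 end in 2 and encode mitochondrial enzymes. The RNA came from 3 sublines of the human triple-negative breast cancer line MDA-MB-231: LM2, BrM3 and BoM, which colonize the lung, the brain and bone, respectively. Each line carried a lentiviral pINDUCER10 hairpin, either the control shCtrl or shWDR5-1 (called shWDR5 here), and all cells of both kinds received DOX at 1 μg/mL for 3 days. There were 3 libraries for each line and hairpin, 18 in all, harvested at different passages. One hairpin stands for the knockdown in these data, every line descends from the same parental line, and no library without DOX was included.

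Aminoacyl-tRNA synthetases join each amino acid to its tRNAs, and the charged tRNAs are what the ribosome reads the code with. The cytosol and the mitochondrion keep separate sets: the mitochondrial enzymes are encoded in the nucleus, imported, and serve the few proteins of the respiratory chain that mitochondria make themselves. Several cytosolic enzymes sit together in a multisynthetase complex, and all synthetases belong to 1 of 2 structural classes. WDR5 is a chromatin adaptor protein known for its part in histone methyltransferase complexes and for binding MYC.

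Total counts ranged from 17485841 to 119667013 per library. WDR5 was at 113 to 134 normalized CPM (a gene's count relative to the library's TMM-scaled total) in the shCtrl libraries of LM2 and 20.5 to 24.4 in its shWDR5 libraries. The ranges were 79.4 to 93.3 and 20.8 to 23.5 in BrM3, and 87.5 to 90.5 and 14.0 to 22.1 in BoM. WDR5 thus changed by -2.43 (LM2), -1.97 (BrM3) and -2.24 (BoM) on the log2 scale. Of the marker genes of the parental line, the mesenchymal genes VIM (1490 to 2230 CPM) and CD44 (498 to 765) and the epithelial keratin KRT18 (263 to 501) were abundant in every library. The receptor genes ESR1 and PGR did not exceed 0.537 and 0.715 CPM, ERBB2, which encodes the receptor HER2, was at 41.5 to 83.4, and the leukocyte gene PTPRC did not exceed 1.06.

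Of the 37 genes, 36 passed the filter on low counts that left 12095 genes for testing. SARS2, which charges mitochondrial serine tRNA, did not pass and was at 0.491 to 1.46 CPM in the shCtrl libraries. In GENCODE release 44, 48.2% of its exon bases are shared with a protein-coding readthrough gene on the same strand, so its count is uncertain.

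The cytosolic set was the more abundant in control cells. Per kilobase of the canonical transcript, the median over the 9 shCtrl libraries ran from 15.8 CPM (FARSB) to 193 CPM (TARS) among the 20 cytosolic genes and from 0.401 CPM (SARS2) to 58.5 CPM (IARS2) among the 17 mitochondrial genes. The middle of these medians was 77.7 CPM per kilobase for the cytosolic genes and 13.7 for the mitochondrial genes. TARS (threonine), SARS (serine), GARS (glycine) and KARS (lysine) headed the order at 193, 169, 134 and 112 CPM per kilobase, with overlapping ranges of 112 to 236, 145 to 181, 118 to 192 and 102 to 209. IARS2, which charges mitochondrial isoleucine tRNA, was the only mitochondrial gene above any cytosolic gene other than FARSB, and it stood between EPRS at 60.7 and WARS at 55.6. At the lower end of the tested genes were EARS2 (7.26 CPM per kilobase), NARS2 (6.94), MARS2 (5.47), AARS2 (5.21) and PARS2 (4.36), whose ranges overlapped with those of their neighbours in the order.

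**Figure D1:**
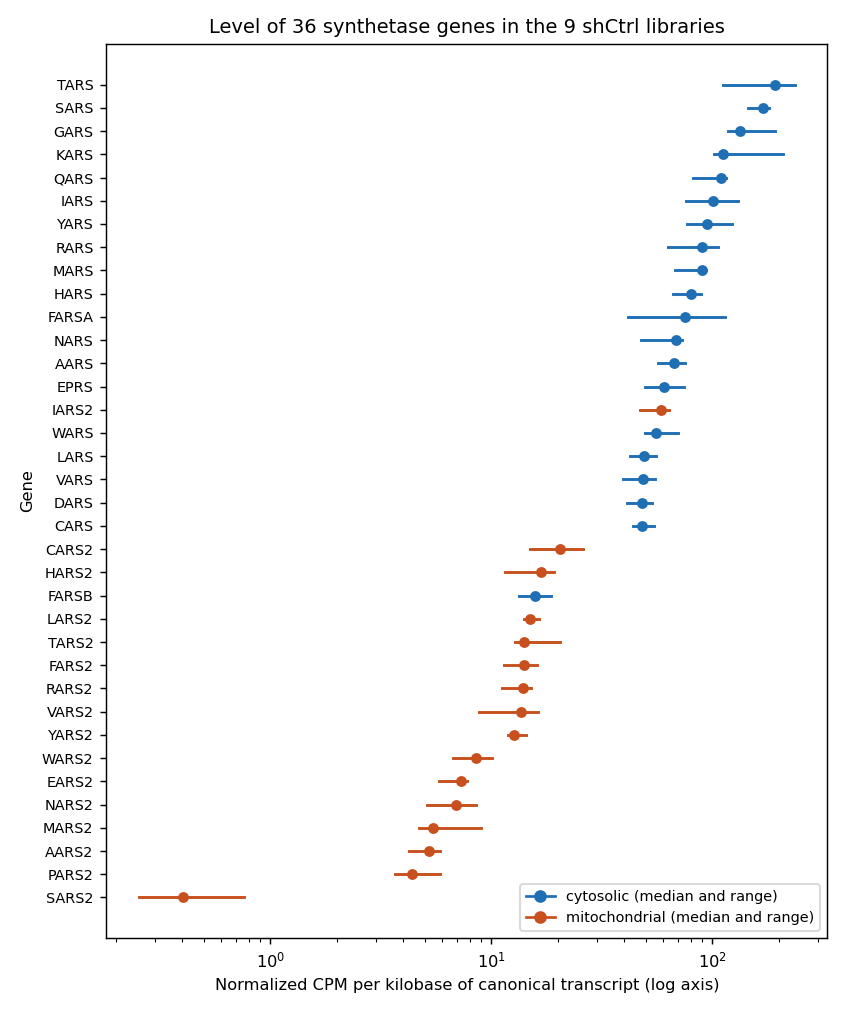
Level of 36 synthetase genes in the 9 shCtrl libraries, as normalized CPM per kilobase of canonical transcript on a log axis. Points are medians and lines run from the lowest to the highest library, with cytosolic genes in blue and mitochondrial genes in orange. The cytosolic genes lie at 48.1 and above except FARSB at 15.8, and the mitochondrial genes at 20.5 and below except IARS2 at 58.5.

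The first question was how the synthetase genes responded when WDR5 was lowered. Averaged over the 3 lines, 8 of the 36 tested genes were lower and 8 were higher in shWDR5 cells (edgeR's quasi-likelihood test, adjusted p under 0.05). All 8 lower genes were mitochondrial, and 7 of the 8 higher genes were cytosolic. The lower genes included TARS2, AARS2, VARS2, LARS2, FARS2, IARS2 and EARS2, at 76.7% to 91% of the shCtrl level. The higher genes were the mitochondrial MARS2 at 125% and the cytosolic IARS, HARS, TARS, KARS, FARSB, GARS and YARS at 109% to 120%. Over all 12095 genes, 19.9% were lower and 15.6% higher in the same comparison.

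Among the 20 cytosolic genes, 7 were higher and 0 lower, and the median log2 fold change was 0.11. In that set 9 genes were higher and 1 was lower at an unadjusted p under 0.05, and DESeq2 called 9 higher and 0 lower. Of all 12095 genes, 5423 had an unadjusted p under 0.05 in either direction. Of the 16 tested mitochondrial genes, 8 were lower and 1 was higher, with a median of -0.11. The median over all tested genes was 0.003. The split of the calls depended on the filter, on the scaling and on GC content. With edgeR's filterByExpr in place of the filter used, 10 members were higher and 5 lower. Without a filter 6 were higher and 5 lower. In each of these fits the 5 lower genes were all mitochondrial, against 8 in the reported fit. With upper-quartile size factors, 4 members were higher and 11 lower, and the 11 took in the cytosolic CARS and DARS besides 9 mitochondrial genes. After a correction for GC content, added after seeing the data, 14 were higher and 7 lower, and the 7 took in the cytosolic DARS besides 6 mitochondrial genes. The 14 higher genes were 11 cytosolic and 3 mitochondrial genes, against 1 mitochondrial gene higher in the reported fit. The median over all tested genes moved too, to -0.056 with upper-quartile size factors and 0.052 after the GC correction. In a bulk library, fewer cells with a transcript and less of it per cell cannot be told apart.

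**Figure D2:**
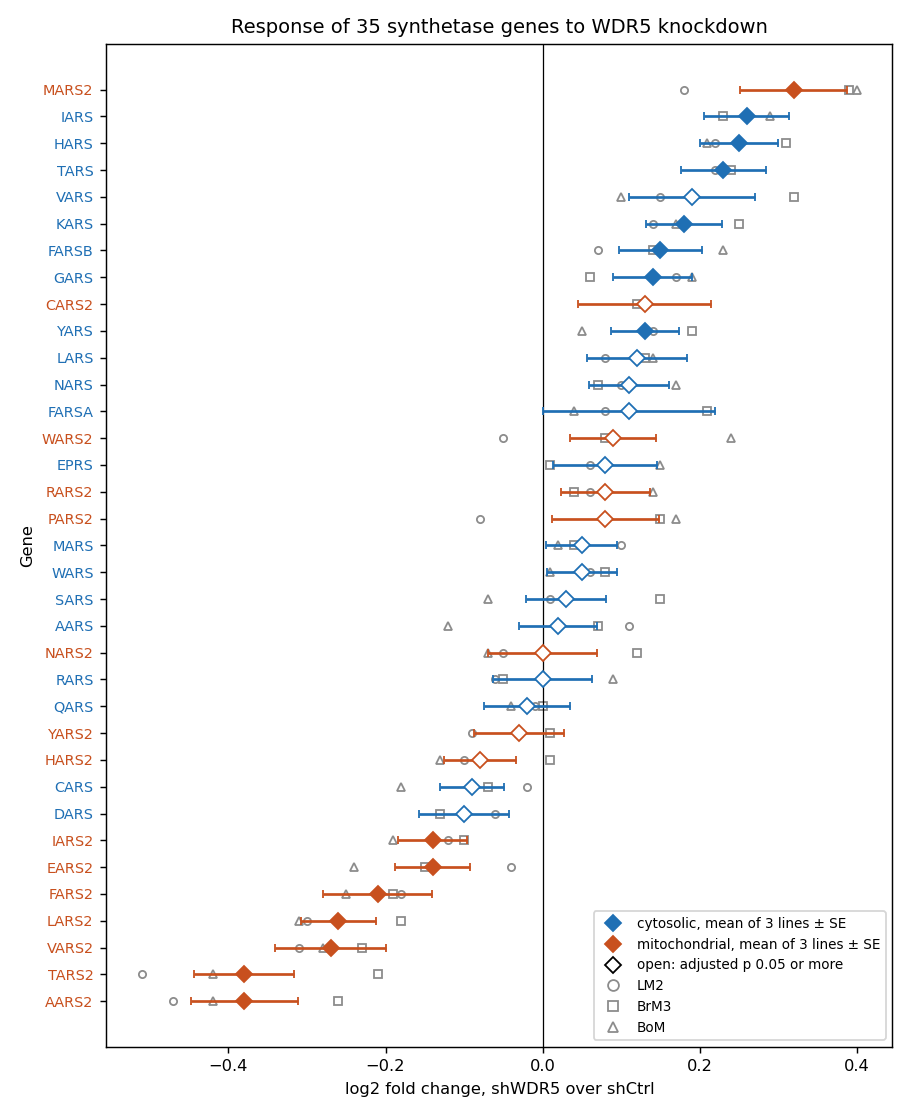
Response of 35 tested synthetase genes, as the log2 fold change of shWDR5 over shCtrl. Diamonds with bars are the mean over the 3 lines and its SE from edgeR, filled where the adjusted p was under 0.05, and grey symbols are the 3 lines. Mitochondrial genes (orange) occupy the lowest 7 places and cytosolic genes (blue) 7 of the 8 filled places above 0.

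The mitochondrial genes that fell are given first, with coordinates of GENCODE release 44 on GRCh38. TARS2, which charges mitochondrial threonine tRNA, lies at chr1:150487414-150507602, plus strand. Normalized CPM in LM2 was 34.8, 37.1 and 37.6 in shCtrl and 27.1, 24.2 and 25.4 in shWDR5. This compared with 54.5, 56.0 and 56.0 in shCtrl and 41.1, 47.9 and 54.2 in shWDR5 in BrM3, and 38.4, 40.6 and 36.1 in shCtrl and 24.3, 32.3 and 29.5 in shWDR5 in BoM. Every shWDR5 library was below every shCtrl library of its line. Over the 3 lines TARS2 stood at 76.7% of the control level (log2 fold change -0.38, SE 0.0636, adjusted p = 0.00019). It passed the test in LM2 (log2 fold change -0.51, SE 0.11, adjusted p = 0.0089) and in BoM (log2 fold change -0.42, SE 0.11, adjusted p = 0.016), and its value in BrM3 was -0.21 (adjusted p = 0.24). The lowest of the 3 BrM3 shWDR5 values came from the library with the lowest total count, 17485841, and without it the count of members called over the lines was 16, FARSB (adjusted p = 0.053) no longer among them.

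AARS2, which charges mitochondrial alanine tRNA, lies at chr6:44298731-44313347, minus strand. The LM2 libraries held 20.3, 27.8 and 28.2 in shCtrl and 18.6, 19.3 and 17.4 in shWDR5, in normalized CPM. Levels were 24.4, 26.2 and 24.7 in shCtrl and 18.1, 21.4 and 23.1 in shWDR5 in BrM3, and 24.2, 25.4 and 25.0 in shCtrl and 18.5, 19.7 and 17.7 in shWDR5 in BoM. The groups did not overlap in any line, although the first LM2 control, at 20.3, lay close to the shWDR5 values. AARS2 stood at 76.8% of control over the lines (log2 fold change -0.38, SE 0.0682, adjusted p = 0.00037). Its log2 fold changes were -0.47 for LM2 (adjusted p = 0.024), -0.42 in BoM (adjusted p = 0.024) and -0.26 in BrM3 (adjusted p = 0.18). LARS2, which charges mitochondrial leucine tRNA, lies at chr3:45388561-45554726, plus strand. LM2 cells had 71.6, 74.3 and 69.6 in shCtrl and 63.9, 57.2 and 54.1 in shWDR5, in normalized CPM. The values were 68.9, 69.7 and 66.7 in shCtrl and 56.6, 61.0 and 63.3 in shWDR5 in BrM3, and 78.8, 73.2 and 77.4 in shCtrl and 62.0, 66.1 and 57.0 in shWDR5 in BoM. All 9 shWDR5 libraries were below the controls of their line. The averaged level was 83.4% of control (log2 fold change -0.26, SE 0.048, adjusted p = 0.00044), and the gene was called in LM2 at -0.30 (adjusted p = 0.041) and in BoM at -0.31 (adjusted p = 0.018). With 1 of the 18 libraries left out at a time, the LM2 call of LARS2 held in 8 fits and the BoM call in 16, and in LM2 the adjusted p rose to 0.15 without shCtrl replicate 2 or shWDR5 replicate 2.

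VARS2, which charges mitochondrial valine tRNA, lies at chr6:30914205-30926459, plus strand. In LM2 it was at 31.4, 37.8 and 35.8 in shCtrl and 29.1, 28.6 and 27.1 in shWDR5, in normalized CPM. This compared with 48.9, 53.2 and 48.2 in shCtrl and 33.0, 46.1 and 48.4 in shWDR5 in BrM3, and 56.0, 57.1 and 58.1 in shCtrl and 50.4, 41.5 and 49.5 in shWDR5 in BoM. The groups were apart in LM2 and BoM and overlapped in BrM3, where 1 shWDR5 library (33.0) was far below the other 2. Over the lines VARS2 was at 82.8% of control (log2 fold change -0.27, SE 0.0704, adjusted p = 0.0062) and it passed the test in none of the lines alone. A noncoding gene model of release 44 covers 63% of its exon bases on the same strand, so its counts are uncertain.

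Another 3 mitochondrial genes fell by less. FARS2, which charges mitochondrial phenylalanine tRNA and lies at chr6:5261044-5829192, plus strand, measured in LM2 20, 19.2 and 19.1 in shCtrl and 18.9, 16.6 and 16.2 in shWDR5, in BrM3 22.9, 26.0 and 23.7 in shCtrl and 18.1, 22.3 and 23.0 in shWDR5, and in BoM 25.4, 27.0 and 27.1 in shCtrl and 18.3, 25.6 and 22.9 in shWDR5. Its groups were apart in LM2 alone, and over the lines it was at 86.7% of control (log2 fold change -0.21, SE 0.0692, adjusted p = 0.028). IARS2 (isoleucine, chr1:220094132-220148041, plus strand) measured in LM2 224, 206 and 204 in shCtrl and 206, 199 and 176 in shWDR5, in BrM3 217, 208 and 212 in shCtrl and 211, 193 and 191 in shWDR5, and in BoM 176, 167 and 178 in shCtrl and 153, 153 and 152 in shWDR5. Here BoM was the line without overlap, and the averaged level was 91% (log2 fold change -0.14, SE 0.0436, adjusted p = 0.022). EARS2 (glutamate, chr16:23520754-23557731, minus strand) measured in LM2 40.5, 38.6 and 39.2 in shCtrl and 39.7, 37.7 and 38.0 in shWDR5, in BrM3 31.5, 30.3 and 30.8 in shCtrl and 25.2, 28.1 and 30.2 in shWDR5, and in BoM 37.7, 37.0 and 39.3 in shCtrl and 32.1, 34.1 and 30.0 in shWDR5. The groups were apart in BrM3 and BoM, and the averaged level was 90.6% (log2 fold change -0.14, SE 0.0476, adjusted p = 0.027). The calls of FARS2 and EARS2 each rested on single libraries. FARS2 had an adjusted p of 0.055 without LM2 shWDR5 replicate 2 and 0.06 without BrM3 shCtrl replicate 2. EARS2 had 0.054 without LM2 shWDR5 replicate 2 or BrM3 shCtrl replicate 1 and 0.052 without BoM shCtrl replicate 3.

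In the reported fit, the exception among the mitochondrial genes was MARS2. MARS2, which charges mitochondrial methionine tRNA, the initiator of mitochondrial protein synthesis included, lies at chr2:197705369-197708395, plus strand. Normalized CPM in LM2 was 17.3, 15.8 and 15.1 in shCtrl and 20.2, 19.3 and 14.6 in shWDR5. Levels were 27.3, 25.7 and 23.6 in shCtrl and 34.4, 33.4 and 32.7 in shWDR5 in BrM3, and 16.6, 14.2 and 15.1 in shCtrl and 22.4, 19.4 and 18.5 in shWDR5 in BoM. The shWDR5 libraries were above the controls in BrM3 and BoM, and in LM2 the third shWDR5 library, at 14.6, was below all 3 controls. MARS2 stood at 125% of control over the lines (log2 fold change 0.32, SE 0.0682, adjusted p = 0.0015). It was called in BrM3 at 0.39 (adjusted p = 0.04) and in BoM at 0.40 (adjusted p = 0.032), with 0.18 in LM2 (adjusted p = 0.44). The BrM3 call of MARS2 held in 9 of the 18 fits without 1 library, with an adjusted p of 0.17 without BrM3 shCtrl replicate 3, and the BoM call held in 14. Its gene span and its transcript are both 3027 bases long, so it has no intron in release 44.

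The 7 mitochondrial genes that did not pass the averaged test spread around 0. They were CARS2 (cysteine, 0.13), WARS2 (tryptophan, 0.09), RARS2 (arginine, 0.08), PARS2 (proline, 0.08), NARS2 (asparagine, 0.00), YARS2 (tyrosine, -0.03) and HARS2 (histidine, -0.08). Their adjusted p-values ran from 0.21 to 1.0. WARS2 had opposite signs in LM2 (-0.05) and BoM (0.24), with an adjusted p of 0.95 for that difference.

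**Figure D3:**
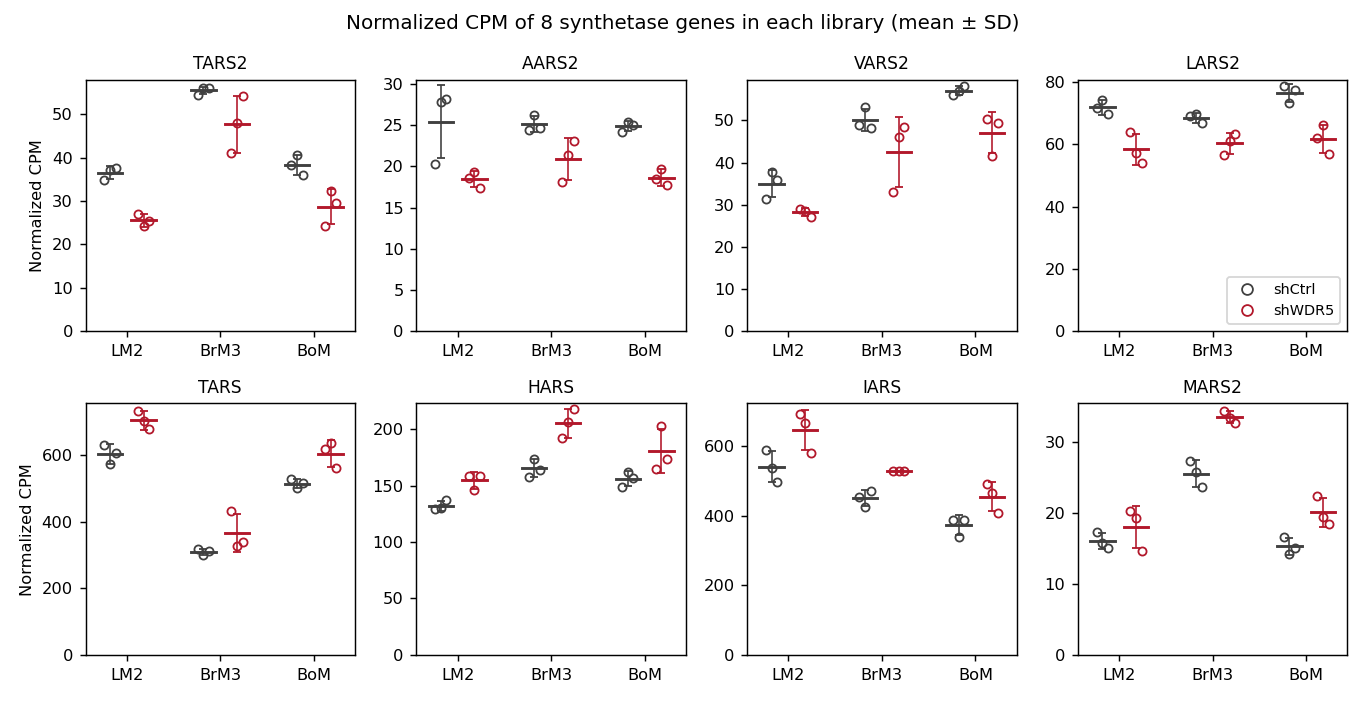
Normalized CPM of 8 synthetase genes in each library, with shCtrl in grey and shWDR5 in red. Circles are libraries, thick lines are means of 3 libraries and bars their SD. TARS2, AARS2 and LARS2 are lower without overlap in all 3 lines, VARS2 is lower without overlap in LM2 and BoM, TARS and HARS are higher without overlap in all 3 lines, and IARS and MARS2 overlap in LM2.

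The cytosolic genes that rose did so by 0.13 to 0.26 on the log2 scale over the 3 lines. IARS, which charges cytosolic isoleucine tRNA within the multisynthetase complex, lies at chr9:92210207-92293854, minus strand. The LM2 libraries held 589, 537 and 498 in shCtrl and 692, 666 and 581 in shWDR5, in normalized CPM. The values were 453, 425 and 471 in shCtrl and 529, 529 and 528 in shWDR5 in BrM3, and 389, 340 and 389 in shCtrl and 492, 464 and 409 in shWDR5 in BoM. The groups overlapped in LM2, by 1 library of each, and were apart in the other two lines. IARS was at 120% of control (log2 fold change 0.26, SE 0.0539, adjusted p = 0.0013) and was called in BoM at 0.29 (adjusted p = 0.044). With single libraries removed in turn, the BoM call held in 5 of 18 fits, and the adjusted p rose to 0.19 without BoM shCtrl replicate 2.

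HARS, which charges cytosolic histidine tRNA, lies at chr5:140673035-140691537, minus strand. LM2 cells had 129, 130 and 137 in shCtrl and 159, 146 and 159 in shWDR5, in normalized CPM. This compared with 158, 174 and 164 in shCtrl and 192, 206 and 218 in shWDR5 in BrM3, and 149, 162 and 157 in shCtrl and 165, 203 and 174 in shWDR5 in BoM. The shWDR5 libraries were higher in each line without overlap, by the least margin in BoM. The averaged level was 119% (log2 fold change 0.25, SE 0.0492, adjusted p = 0.00086), and BrM3 was the line where the gene was called (log2 fold change 0.31, SE 0.0851, adjusted p = 0.025). TARS, which charges cytosolic threonine tRNA, lies at chr5:33440696-33468091, plus strand. In LM2 it was at 630, 572 and 606 in shCtrl and 733, 701 and 677 in shWDR5, in normalized CPM. Levels were 318, 300 and 311 in shCtrl and 432, 326 and 340 in shWDR5 in BrM3, and 527, 500 and 516 in shCtrl and 618, 635 and 560 in shWDR5 in BoM. Every shWDR5 library was above the controls of its line, and in BrM3 the first one, at 432, stood apart from the other 2. TARS was at 117% of control (log2 fold change 0.23, SE 0.0541, adjusted p = 0.0031), with near equal log2 fold changes of 0.22, 0.24 and 0.23 in LM2, BrM3 and BoM and no call in any line alone.

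KARS, which charges lysine tRNA in both compartments and lies at chr16:75627474-75648643, minus strand, measured in LM2 229, 204 and 206 in shCtrl and 242, 228 and 231 in shWDR5, in BrM3 221, 214 and 223 in shCtrl and 247, 262 and 271 in shWDR5, and in BoM 367, 387 and 416 in shCtrl and 403, 488 and 420 in shWDR5. The groups were apart in BrM3 alone, and the averaged level was 114% (log2 fold change 0.18, SE 0.0483, adjusted p = 0.0069). FARSB, the beta subunit of the phenylalanine enzyme at chr2:222566899-222656092, minus strand, measured in LM2 107, 89.8 and 91.6 in shCtrl and 104, 98.6 and 101 in shWDR5, in BrM3 103, 102 and 108 in shCtrl and 118, 110 and 117 in shWDR5, and in BoM 115, 119 and 126 in shCtrl and 124, 158 and 140 in shWDR5. It was at 111% (log2 fold change 0.15, SE 0.0526, adjusted p = 0.038), and the groups were apart in BrM3 alone, while its partner subunit FARSA had a log2 fold change of 0.11 with an SE of 0.11 (adjusted p = 0.44).

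GARS, the glycine enzyme of both compartments at chr7:30580533-30634033, plus strand, measured in LM2 318, 288 and 295 in shCtrl and 338, 339 and 338 in shWDR5, in BrM3 326, 314 and 335 in shCtrl and 331, 337 and 350 in shWDR5, and in BoM 381, 414 and 468 in shCtrl and 426, 521 and 492 in shWDR5. The groups were apart in LM2 alone, and the averaged level was 110% (log2 fold change 0.14, SE 0.0504, adjusted p = 0.038). YARS (tyrosine, chr1:32775237-32818031, minus strand) measured in LM2 196, 194 and 188 in shCtrl and 222, 217 and 197 in shWDR5, in BrM3 237, 232 and 227 in shCtrl and 241, 266 and 287 in shWDR5, and in BoM 290, 290 and 300 in shCtrl and 299, 313 and 300 in shWDR5. Its groups were apart in LM2 and BrM3, and it was at 109% of control (log2 fold change 0.13, SE 0.0433, adjusted p = 0.03). Of the averaged calls, FARSB, GARS and YARS were the least stable: with each of the 18 libraries left out in turn, they were called in 6, 5 and 9 of the 18 fits, with adjusted p-values up to 0.086, 0.082 and 0.07 in the others. AARS2, LARS2, TARS2, VARS2, IARS2, HARS, IARS, KARS, TARS and MARS2 were called over the lines in all 18.

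The other 13 cytosolic genes lay between -0.10 and 0.19. VARS (valine) had the highest value at 0.19 (adjusted p = 0.072), followed by LARS (leucine) at 0.12, NARS (asparagine) and FARSA at 0.11, and EPRS (glutamate and proline) at 0.08. WARS (tryptophan) and MARS (methionine) were at 0.05, SARS at 0.03, AARS (alanine) at 0.02, RARS (arginine) at 0.00 and QARS (glutamine) at -0.02. CARS (cysteine) at -0.09 and DARS (aspartate) at -0.10 were the lowest, with adjusted p-values of 0.097 and 0.2.

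The calls were also counted by membership of the multisynthetase complex and by structural class. Of the 8 complex members, IARS and KARS were higher and 0 lower, with a median of 0.07, and of the 12 cytosolic genes outside the complex 5 were higher and 0 lower, with a median of 0.12. Of the 19 class I genes 3 were higher and 4 lower, and of the 17 class II genes 5 were higher and 4 lower, where 15.6% of all genes were higher and 19.9% lower. DESeq2 also called 0 cytosolic genes lower over the 3 lines.

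Comparing each mitochondrial enzyme with the cytosolic enzyme for the same amino acid sets aside the scaling of the libraries, since the ratio is formed within a library. Of 16 such pairs (EPRS enters both the glutamate and the proline pair), the averaged log2 fold change of the mitochondrial gene was below that of the cytosolic gene in 11. For 6 pairs (alanine, histidine, isoleucine, leucine, threonine and valine) the ratio of mitochondrial to cytosolic CPM was lower in shWDR5 without overlap in all 3 lines. There every shWDR5 library was below every shCtrl library of its line. The ratio was higher in this way for 0 pairs. Genes called above are among these pairs, so the count is not separate from those calls. The share among other pairs of genes was not computed. A ratio within a library does not set aside GC content, and the ratios were not recomputed with the GC correction. GC content was 42.8% for TARS and 54.6% for TARS2, but 43.3% for IARS and 43.5% for IARS2. Averaged over the lines the threonine pair differed the most, although in BrM3 the valine pair changed by more. The log2 ratio of TARS2 to TARS was -4.18 to -3.95 in the LM2 controls and -4.86 to -4.73 in LM2 shWDR5 cells, a difference of means of -0.74. In BrM3 the ranges were -2.55 to -2.42 and -3.39 to -2.65 (difference -0.46), and in BoM -3.84 to -3.62 and -4.67 to -4.25 (difference -0.66). The valine pair changed by -0.47, -0.55 and -0.39 in LM2, BrM3 and BoM, and the histidine pair by -0.33, -0.31 and -0.34. The methionine pair went the other way, by 0.06, 0.36 and 0.37, with overlap in LM2. The cysteine pair was at 0.16, 0.20 and 0.31, with overlap in LM2 and BrM3.

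The same shift appeared in the summed levels. The 20 cytosolic genes together held 4670 ± 112 CPM in LM2 controls and 5080 ± 190 in LM2 shWDR5 cells (SD, n = 3), while the 17 mitochondrial genes held 672 ± 4.21 and 607 ± 23.5 CPM. In BrM3 the cytosolic sums were 4490 ± 33.9 and 4910 ± 97.9, and the mitochondrial sums 750 ± 3.11 and 711 ± 15.8. In BoM they were 5050 ± 105 and 5430 ± 321, and 701 ± 14.9 and 628 ± 17.3. The quotient of the 2 sums was 6.85 to 7.10 in LM2 controls and 8.32 to 8.39 in LM2 shWDR5 cells. It was 5.93 to 6.05 and 6.80 to 6.98 in BrM3, and 7.11 to 7.28 and 8.16 to 9.04 in BoM. The ranges of shCtrl and shWDR5 did not overlap in any line, and no p-value is given for these sums because genes that passed the test are among them.

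**Figure D4:**
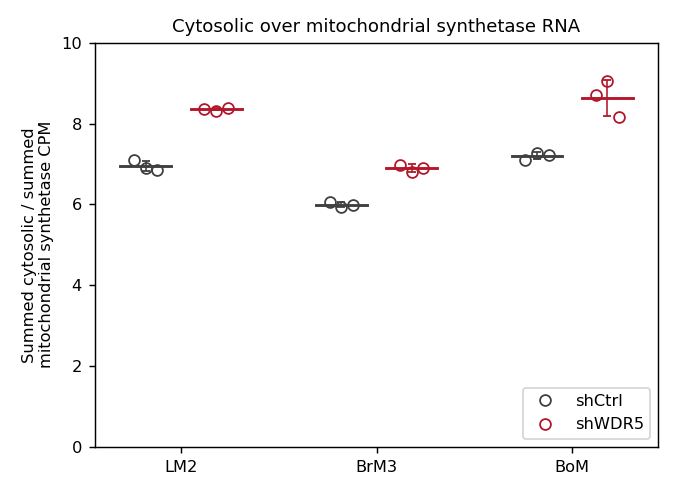
Summed CPM of the 20 cytosolic synthetase genes divided by that of the 17 mitochondrial genes in each library, by line, with shCtrl in grey and shWDR5 in red. Circles are libraries, thick lines means of 3 libraries and bars their SD. The shWDR5 libraries are above the controls in each line, with the widest spread in BoM (8.16 to 9.04).

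Within single lines few synthetase genes passed the test. In LM2, 3 of 36 were lower (TARS2, AARS2 and LARS2) and 0 higher, where 4.77% of all genes were lower and 1.48% higher. At an unadjusted p under 0.05, 5 mitochondrial genes were lower and 3 cytosolic genes higher in LM2. In either direction 8 of the 36 members and 2432 of all 12095 genes were under that level. DESeq2 called 0 synthetase genes higher in LM2. In BrM3, 2 were higher (HARS and MARS2) and 0 lower, against 2.89% and 7.92% of all genes. There 3 mitochondrial genes were lower at an unadjusted p under 0.05, a level that 10 members and 3018 of all genes met in either direction. For BrM3, DESeq2 called 4 synthetase genes higher and 0 lower. In BoM, 4 were lower (AARS2, LARS2 and TARS2 among them) and 2 higher (IARS and MARS2), against 10.7% and 5.42% of all genes. At an unadjusted p under 0.05, 7 mitochondrial genes and 1 cytosolic gene were lower in BoM. At that level 2 mitochondrial and 5 cytosolic genes were higher. In either direction 15 members and 3659 of all genes met it. Without LM2 shWDR5 replicate 2, 0 members were called in LM2, and without LM2 shCtrl replicate 2 or 3 or shWDR5 replicate 3, 1 was. In BrM3, 0 members were called without shCtrl replicate 1 or 3 or shWDR5 replicate 2 or 3, and 1 without BrM3 shCtrl replicate 2, BoM shCtrl replicate 3 or LM2 shCtrl replicate 2, while in BoM each shCtrl replicate left out gave 2. Among the other calls in single lines, TARS2 was called in 17 of the 18 fits in LM2 and 16 in BoM, AARS2 in 13 in each of the same lines, and HARS in 14 in BrM3.

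These splits also moved with the scaling and with GC content. With upper-quartile size factors the members called higher and lower numbered 0 and 4 for LM2, 0 and 0 for BrM3, and 0 and 7 for BoM. After the GC correction LM2 had 3 and 4, BrM3 9 and 0, and BoM 8 and 6. DESeq2 gave 5 and 6 in BoM, where 2 of the 5 higher genes were mitochondrial and 1 of the 6 lower genes was cytosolic.

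Whether the response itself differed between lines was tested directly. None of the 36 genes passed for BrM3 against LM2, BoM against LM2 or BoM against BrM3 (edgeR's quasi-likelihood test), against 0.00827%, 0.0% and 0.00827% of all genes. At an unadjusted p under 0.05 the counts were 0, 1 (WARS2) and 0, against 355, 627 and 351 of all genes. DESeq2 called 0 members in each. TARS2 had the largest single difference, with a response 0.30 higher in BrM3 than in LM2 (SE 0.16, adjusted p = 1.0). The calls above in single lines were thus not shown to differ between lines.

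Without knockdown, the lines differed in a large share of all tested genes, synthetase genes among them. Between BrM3 and LM2 controls, 14 of the 36 genes were higher and 5 lower in BrM3, against 47.6% of all genes called in either direction. Between BoM and LM2, 17 were higher and 6 lower in BoM, against 51.8%, and between BoM and BrM3, 8 were higher and 7 lower, against 37.7%. In either direction 19, 23 and 15 of the 36 were called, so the share was above that of all genes by the most in BoM against LM2. These comparisons share control libraries with each other and with the knockdown comparisons.

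TARS set BrM3 apart, at 318, 300 and 311 CPM against 630, 572 and 606 in LM2 and 527, 500 and 516 in BoM. The BrM3 controls were below all others, with a log2 difference of -0.96 from LM2 (adjusted p = 2.5e-07), and BoM was 0.73 above BrM3 (adjusted p = 1.2e-05). TARS2 and MARS2, by contrast, were highest in BrM3. TARS2 was at 54.5, 56.0 and 56.0 CPM in BrM3 controls, 0.60 above LM2 on the log2 scale (adjusted p = 0.00022), and MARS2 was 0.67 above LM2 (adjusted p = 0.00016), while BoM was -0.74 from BrM3 (adjusted p = 0.00012). The summed quotient was lowest in BrM3 controls, at 5.99 ± 0.059, against 6.95 ± 0.132 in LM2 and 7.20 ± 0.0871 in BoM (SD, n = 3).

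BoM was marked by KARS, at 367, 387 and 416 CPM against 229, 204 and 206 in LM2 and 221, 214 and 223 in BrM3. The BoM controls were above all others, by 0.87 on the log2 scale over LM2 (adjusted p = 1.7e-07) and 0.83 over BrM3 (adjusted p = 8e-07). YARS was 0.61 and GARS 0.49 above LM2 in BoM. LM2 held the lowest levels of HARS2, from which BoM differed by 0.63 (adjusted p = 4.3e-06) and BrM3 by 0.51 (adjusted p = 5.3e-05), and of VARS2, with 0.70 and 0.51. IARS ran the other way and was -0.54 in BoM against LM2 (adjusted p = 0.00013). FARSA varied within its groups, from 75.3 to 126 CPM among the LM2 controls, and its difference of 0.82 between BrM3 and LM2 (adjusted p = 0.0015) had an SE of 0.18.

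**Figure D5:**
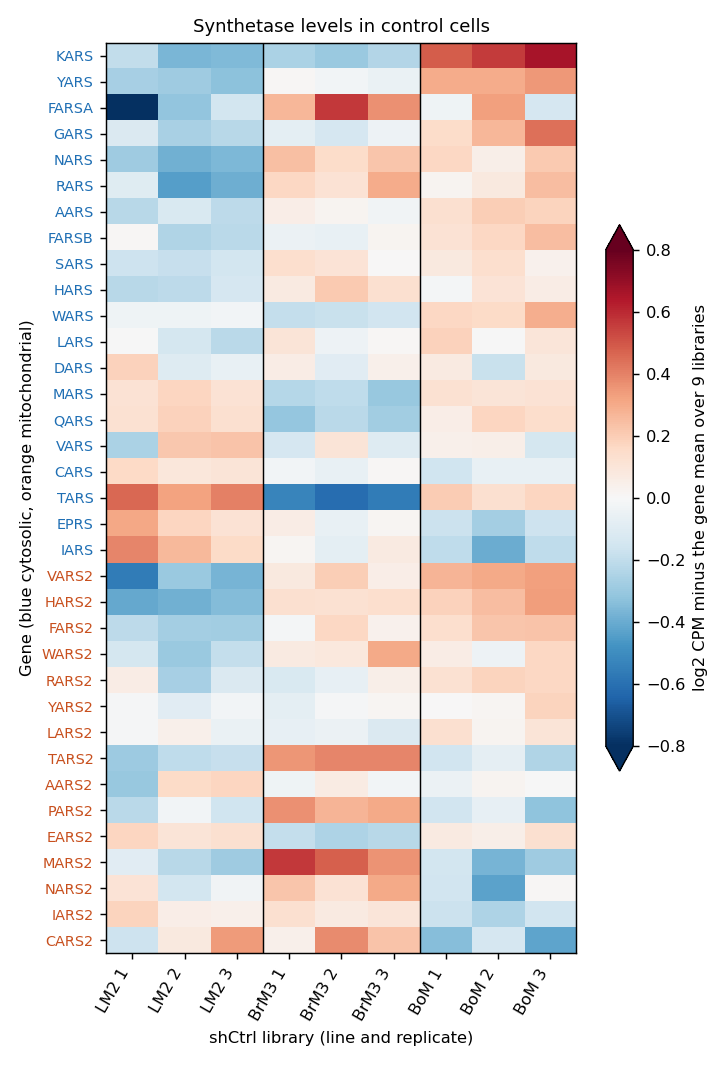
Level of 35 tested synthetase genes in the 9 shCtrl libraries, as log2 CPM minus the mean of the gene over these libraries, with red above and blue below that mean. Columns are libraries by line and replicate, and rows are genes, cytosolic in the upper block and mitochondrial in the lower block, ordered by BoM minus LM2. KARS is red in the 3 BoM libraries, TARS is blue and TARS2 and MARS2 are red in the 3 BrM3 libraries, and HARS2 and VARS2 are blue in the 3 LM2 libraries.

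The promoter windows of the genes show which known elements lie at their starts. RefSeq windows on GRCh38.p14 of 300 bases, 250 before and 50 after the start, were matched for 30 of the 37 genes (16 cytosolic and 14 mitochondrial). The C/EBP-ATF response element, through which ATF4 acts on genes of amino acid metabolism, was searched as TGATGNAA on both strands. It was found in 6 of the 16 cytosolic and 1 of the 14 mitochondrial windows, and in 3.62% of all 35116 windows. The 7 sequences are printed 5′ to 3′ on the strand of the gene with the element in capitals, because they show the same core in 6 of the cytosolic genes.
AARS: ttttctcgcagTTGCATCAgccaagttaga
CARS: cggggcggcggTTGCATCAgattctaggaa
IARS: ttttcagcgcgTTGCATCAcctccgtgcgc
MARS: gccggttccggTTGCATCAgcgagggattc
NARS: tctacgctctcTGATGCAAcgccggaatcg
TARS: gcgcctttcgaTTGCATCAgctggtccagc
YARS2: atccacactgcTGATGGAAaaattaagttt
They lie at chr16:70289675-70289704, minus strand (AARS), chr11:3057407-3057436, minus strand (CARS), chr9:92293692-92293721, minus strand (IARS), chr12:57488053-57488082, plus strand (MARS), chr18:57621804-57621833, minus strand (NARS), chr5:33440956-33440985, plus strand (TARS) and chr12:32756076-32756105, minus strand (YARS2). Of these 7 genes, IARS and TARS were higher after knockdown, and AARS, CARS, MARS, NARS and YARS2 had values between -0.09 and 0.11 without passing the test. HARS, KARS, FARSB and GARS were higher with no such match in their windows. YARS, also higher, had no window to search, and neither had AARS2 and VARS2 among the lower genes.

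HARS and HARS2 stand head to head on chromosome 5. The 84 bases between their RefSeq starts (chr5:140691371-140691454, plus strand) carry 2 matches to CCGGAAGT, the core bound by ETS factors, 1 at each end and on opposite strands, here in capitals.
HARS2: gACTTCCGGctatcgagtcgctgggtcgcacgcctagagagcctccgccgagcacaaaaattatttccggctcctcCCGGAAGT
HARS had a log2 fold change of 0.25 and HARS2 of -0.08 (adjusted p = 0.21), and their ratio shifted in all 3 lines as given above. The exons of the 2 genes overlap by 108 bases on opposite strands in GENCODE release 44, 2.9% of those of HARS2. CCGGAAGT was found in 4 of the 16 cytosolic and 3 of the 14 mitochondrial windows and in 4.14% of all windows. EARS2 and its head-to-head neighbour UBFD1 were at -0.14 and 0.13, the latter without passing the test (adjusted p = 0.11).

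Upstream of the mitochondrial genes, MARS2 (risen), EARS2 and TARS2 (fallen) are shown as examples of the elements searched. Capitals mark CACGTG, the E-box that MYC and related factors bind, GCGCATGC (NRF1, a regulator of nuclear genes for mitochondrial proteins), CCGGAAGT (ETS) and CCAAT (bound by NF-Y), each read on both strands. In MARS2 the GCGCATGC matches on the 2 strands overlap. The windows of all these genes carry CCAAT, in MARS2 at -173 and -65 from the start, before the stretch printed.
MARS2: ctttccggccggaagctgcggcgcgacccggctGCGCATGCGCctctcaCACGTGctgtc
EARS2: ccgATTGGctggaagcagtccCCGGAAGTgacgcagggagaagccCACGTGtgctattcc
TARS2: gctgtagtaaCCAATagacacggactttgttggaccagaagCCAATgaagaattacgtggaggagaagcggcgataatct
These are the last 60 bases before the MARS2 start (chr2:197705309-197705368, plus strand), the last 60 before the EARS2 start (chr16:23557351-23557410, minus strand) and the last 80 before the TARS2 start (chr1:150487339-150487418, plus strand). The E-box was in 1 of 16 cytosolic (IARS) and 3 of 14 mitochondrial windows (CARS2, EARS2 and MARS2), and in 7.26% of all windows. The NRF1 sequence was in 0 and 2 (3.05% of all), CCAAT in 7 and 9 (34.6%), and ATGGCGGC, the core read by YY1, in 3 and 3 (3.0%). Of the genes with an E-box, IARS and MARS2 were higher over the lines, EARS2 was lower and CARS2 did not pass the test. The part of these elements in the responses was not tested.

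Genes that work beside the synthetases were counted in the same way. Of 14 tested partners, 3 were higher over the lines and 3 lower, with a median of 0.05, where 15.6% of all genes were higher and 19.9% lower. GATB and QRSL1, subunits of the mitochondrial amidotransferase that makes glutaminyl-tRNA in place of a mitochondrial glutamine synthetase, were at -0.44 (adjusted p = 3.8e-05) and -0.20 (adjusted p = 0.024), while the third subunit gene, GATC, was at 0.05 (adjusted p = 0.49). SEPSECS, the last enzyme of selenocysteinyl-tRNA synthesis, was at -0.37 (adjusted p = 0.0013). YRDC, which takes part in a threonine-derived modification of tRNA, was at 0.33 (adjusted p = 0.0048), the threonine synthetase paralogue TARSL2 at 0.25 (adjusted p = 0.0059) and the tRNA export receptor XPOT at 0.23 (adjusted p = 0.0076). The complex scaffolds AIMP1, AIMP2 and EEF1E1 had values of 0.08, 0.21 and 0.02 and did not pass.

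ATF4 is the activator of many cytosolic synthetase genes when amino acids are short. Of 29 tested genes of the amino acid response, 9 were higher over the lines and 2 lower, with a median of 0.08. Over all genes 15.6% were higher and 19.9% lower. ATF4 itself was at 0.24 (adjusted p = 0.024) and DDIT3, the stress factor CHOP, at 0.64 (adjusted p = 3.8e-05), with 11.5 to 12.9 CPM in LM2 controls and 19.6 to 23.1 in LM2 shWDR5 cells. CTH, SESN2 and SLC7A11 were higher too, at 0.47, 0.40 and 0.35. NUPR1 (-0.58) and the amino acid transporter gene SLC7A5 (-0.33) were lower. TRIB3 and CHAC1, both common reporters of ATF4, were at 0.11 (adjusted p = 0.28) and -0.21 (adjusted p = 0.31), and ASNS, at 17 to 116 counts, was not tested. In release 44 DDIT3 shares 355 exon bases with MARS on the opposite strand. The part of the ATF4 response in the rise of the cytosolic genes was not tested.

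WARS is known to be induced by interferon gamma and was at 0.05 (adjusted p = 0.43). The counts that follow stand against 15.6% of all genes higher and 19.9% lower over the lines. Of 13 tested genes of the interferon gamma response 4 were higher (GBP1, B2M and IRF1 among them, at 0.40, 0.27 and 0.20) and 2 lower (IFIT1 and IFIT3, at -0.32 and -0.29). Of 6 tested genes of MYC and its partners, MLX (0.34) and MXD1 (0.32) were higher, the other 4 did not pass, and MYC was at 0.09 (adjusted p = 0.38). Of the 5 marker genes of the parental line that were tested, VIM (0.20) and KRT18 (0.20) were higher and EPCAM (-0.60) was lower, and the part of that shift in the synthetase values was not tested.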

How the data were processed

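Libraries were made from mRNA with a stranded kit that followed DNase-treated extraction, and reads were paired-end. The authors aligned them to hg38 with STAR 2.7.0 and deposited raw counts per gene, without normalization; base calling with CASAVA 1.8.2 is named in the submitters' processing notes. A further deposited file holds the authors' own log2 fold changes and adjusted p-values, which were not used. Groups were read from sample titles. Labels of the cell line write BrM2 where the titles and Methods write BrM3, and the source labels of many libraries name another line and were set aside. In the column names of the table, ad was read as shCtrl and wd as shWDR5. The table holds 0 spike-in rows, so libraries were scaled by TMM, which cannot show a change in RNA per cell. No column of per-sample values was left out (0 columns).

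The count model was edgeR 4.0.16 run under R 4.3.3 (quasi-likelihood, 6 groups in 1 fit, 12 residual degrees of freedom) on 12095 genes kept by a recomputed Jaccard criterion (normalized count above 145, index 0.97). P-values were adjusted by Benjamini-Hochberg over these genes. SEs came from the F statistic. Replicates were taken as separate cultures because they were harvested at different passages, and the 18 replicate pairs differed by more than sampling noise (chi-square per gene 5.14 to 90.5). The genes named with full values were those called over the lines or in a line, and the accessory genes were the called ones with the largest change and those that define a list. Counts cover every member and list gene, but values of 1 member and 1 list gene are not reported here and that member is left out of the figures, except for the summed ratio. The members and lists were chosen with earlier results of these data known. Levels per kilobase used the canonical GENCODE 44 transcript. Tables and figures were made with Python 3.11.15, pandas 2.3.3 and matplotlib 3.10.9. The fits were tested on simulated counts with known changes, all larger than those of the synthetase genes called over the lines. Changes of the size reported here were not simulated. Alternatives were DESeq2 1.42.0, RLE and upper-quartile size factors, filterByExpr (18428 genes), no filter (41236), the replicate block, each line alone, leaving out each library, and a GC correction (loess span 0.5, prior count 2) with or without the block.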

Additional observations from a re-analysis of the deposited data

How the results depend on the processing

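Among the called counts of members, those of the averaged comparison and of the comparisons between control lines stayed within 1.5 times of the reported value under most alternatives. The averaged count of 16 became 26 (17 higher, 9 lower) with GC correction and replicate block together, and the 23 genes that differed between BoM and LM2 controls became 15 without a filter. In LM2 the 3 calls became 1 without a filter and 1 with each line alone. The 2 calls in BrM3 became 4 with DESeq2, 0 with upper-quartile size factors, 0 without a filter and 4 with each line alone. The 6 calls in BoM became 11 with DESeq2, 0 without a filter and 0 with each line alone. With a GC correction, chosen after seeing the data, LM2, BrM3 and BoM gave 7, 9 and 14, and with GC correction and block 9, 10 and 16. The cause of these changes was not tested. Leaving out each library in turn gave 0 to 4 calls in LM2, 0 to 3 in BrM3, 2 to 9 in BoM, 11 to 16 over the lines, 16 to 20 for BrM3 against LM2 controls, 16 to 23 for BoM against LM2, 13 to 15 for BoM against BrM3 and 0 to 0 for each difference of responses. The WDR5 change stayed at -2.50 to -2.36 in LM2, -2.03 to -1.91 in BrM3 and -2.36 to -2.05 in BoM. None of these values changed direction in a way that reversed a call. Single genes gave the same verdict in 3601 of the recomputed values, a weaker one in 137, a stronger one in 100 and a moved one in 14. The same verdict includes genes called in neither fit. A weaker one is a lost call, which only a gene called in the reported fit can have, so these counts are no measure of how often calls held.

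No label says what the replicate numbers share, and not every same-numbered pair correlated above 0.1, so the samples were not treated as paired. Of the 9 same-numbered pairs of shCtrl and shWDR5 libraries, 7 had deviations from the group means that correlated above 0.1, with a range of -0.177 to 0.729, and the mean was 0.361 for equal numbers and -0.194 for different ones. Deviations from a group mean cancel within the group, so the second mean largely follows from the first and adds no separate evidence. In BoM all 3 same-numbered pairs were above 0.1 (0.564, 0.322 and 0.144). In 5 of the 9 pairs each library correlated best with the other, a hint from the data and not from the design. With the replicate block, 3, 3 and 6 members were called in LM2, BrM3 and BoM and 17 over the lines (9 higher, 8 lower).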
